A study of Homo sapiens with 18 samples.

Results

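The 44 protein-coding genes whose symbol is COL, a type number, the letter A and a chain number were taken as the collagen chains, out of 58870 genes in the count table. Of these, 11 encode fibrillar (fibril-forming) chains, 6 encode the type IV chains of basement membranes and 27 encode chains of other types. They were measured by RNA sequencing in 3 human melanoma cell lines, WM164, SKMEL28 and A375, each overexpressing GFP as a control or MAFG, a small MAF transcription factor that binds DNA as a dimer with partner proteins. Each of the 6 groups has 3 libraries, 18 in all. Per the study's methods, GFP or Myc-DDK-tagged MAFG was expressed from a lentiviral vector under an EF1α promoter, and transduced cells were selected with blasticidin. All groups therefore carry a lentiviral insertion and the selection marker, and the labels do not say whether the libraries of a group came from separate cultures. The p-values thus measure the spread between these libraries, which may be technical. The comparisons ask which collagen genes changed with MAFG, how the lines differed in their collagen genes, and whether the lines differed in response.

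Collagens are extracellular proteins whose chains wind around each other in a helix, and a molecule can hold copies of the same chain or several different chains. Fibrillar collagens such as types I, III, V and XI form the striated fibrils of connective tissue, in which types V and XI help to set the width of fibrils made mostly of other types. Type IV collagen forms the sheet-like network of basement membranes, and its genes lie in head-to-head pairs. The other types include the FACITs (fibril-associated collagens such as types IX, XII, XIV, XVI, XIX and XXII), the beaded filaments of type VI, the short-chain network of type VIII, the membrane-spanning types such as XIII and XVII, and the multiplexins XV and XVIII of basement membrane zones. In skin most collagen is made by fibroblasts, and melanoma cells can also make and remodel collagen.

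The depth, the summed counts of a library, ranged from 20122172 to 39025042 with a median of 31061375. MAFG mRNA was at 25.6, 28.8 and 23.0 CPM with GFP and 56.0, 55.4 and 47.8 CPM with MAFG in WM164 (CPM, counts scaled to a common library size over all 18 libraries), at 26.2, 26.0 and 20.1 against 38.9, 35.8 and 37.3 CPM in SKMEL28, and at 23.7, 24.6 and 32.7 against 56.3, 47.9 and 37.8 CPM in A375, with no overlap in any line. The 6 melanocytic markers MITF, SOX10, PMEL, MLANA, TYR and S100B summed to 2233 to 4358 CPM in the libraries of WM164 and SKMEL28 and to 35.3 to 41.6 CPM in A375 GFP cells, where MLANA and TYR were at 0. Of markers of other cell types, the 3 endothelial and the 3 keratinocyte markers summed to at most 1.03 and 0.825 CPM in any library, while the 3 immune markers summed to 40.4 to 392 CPM, nearly all of it CD68, with CD3E at 0 in all 18 libraries and PTPRC at 0 in 17. The 7 fibroblast markers that are not collagens summed to 37.6 to 39.3 CPM in WM164, 11.4 to 13.0 CPM in SKMEL28 and 6.33 to 8.09 CPM in A375 GFP libraries, mostly LUM and PRRX1 in WM164, LUM in SKMEL28 and TWIST2 in A375, and THY1 was at 0 in every library of WM164 and SKMEL28. In mean chi-square per gene, A375 MAFG replicate 1 stood apart from replicates 2 and 3 of its group, at 68.7 and 96.7 against 15.8 between these.

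Collagen chains made up 0.0240 to 0.0932% of the counts of a library, and the most abundant chains differed from line to line. Different genes are compared here as TPM, a share of transcripts that accounts for gene length. In WM164 GFP cells, COL9A3, a chain of the FACIT type IX, was highest at 49.7 ± 3.59 TPM (SD, n = 3), 45.3% of all collagen TPM, followed by the type VI chains COL6A1 at 26.4 ± 2.65 TPM and COL6A2 at 11.7 ± 2.48 TPM. In SKMEL28 GFP cells, COL11A1, the α1 chain of the fibrillar type XI, was at 41.2 ± 3.24 TPM and held 69.2% of collagen TPM, while the next chain, the FACIT COL19A1, was at 5.37 ± 1.08 TPM. In A375 GFP cells, the type IV chain COL4A2 was highest at 54.1 ± 8.16 TPM, 40.8% of collagen TPM. Next came the fibrillar COL5A2 at 15.4 ± 1.38 TPM, the FACIT COL12A1 at 13.4 ± 1.87 TPM, the fibrillar COL27A1 at 13.0 ± 1.31 TPM and COL4A1 at 10.5 ± 1.15 TPM. COL5A2, COL12A1 and COL27A1 differ from each other by less than the sum of their SDs, as do COL12A1 and COL4A1.

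**Figure D1:**
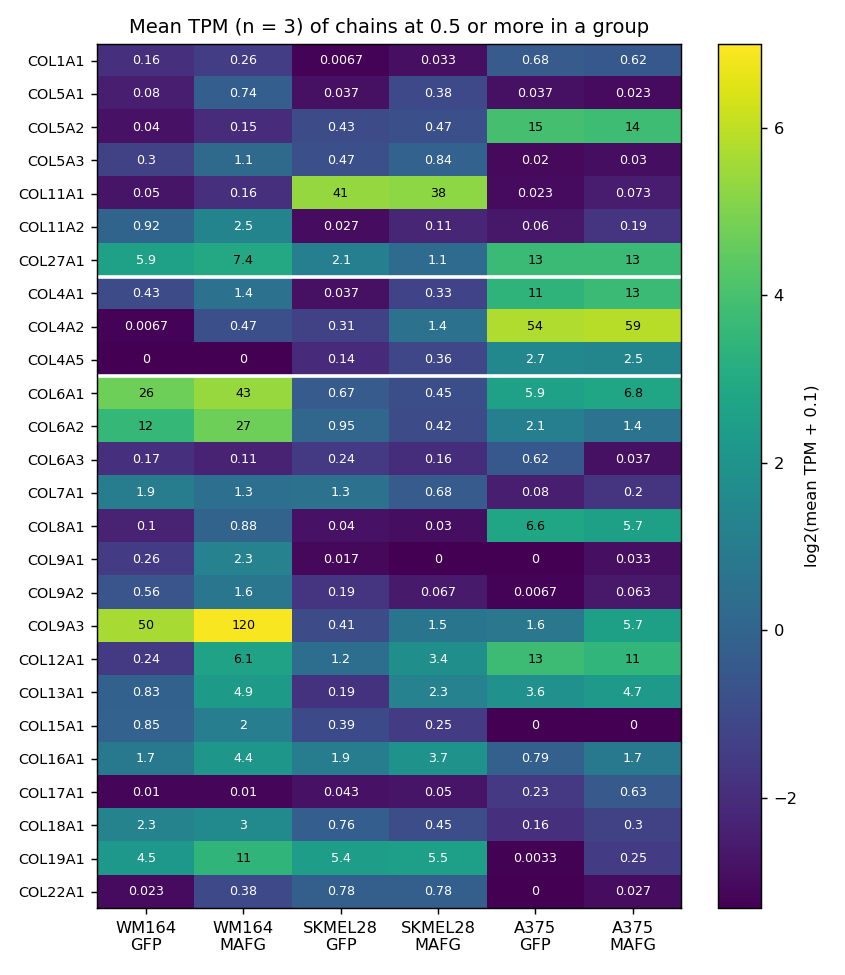
Mean TPM of 3 libraries (number in each cell, colour as log2 of the mean TPM + 0.1) of the 26 collagen chains at 0.5 TPM or more in at least 1 group, with the 6 groups in columns and the fibrillar, type IV and other chains in blocks from top to bottom. COL9A3, COL11A1 and COL4A2 lead in the GFP cells of WM164, SKMEL28 and A375, at 49.7, 41.2 and 54.1 TPM.

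Between the GFP cells of the lines, most of the 34 collagen chains that could be tested differed, as did a large share of all genes. A gene is called here if its adjusted p in edgeR's quasi-likelihood test does not exceed 0.05 and it differs by more than 2-fold, and SE is the standard error of a log2 value. Between A375 and WM164, 28 chains were called, 11 higher and 17 lower in A375, where 46.7% of all genes tested were called. Between A375 and SKMEL28, 28 chains were called, 16 higher and 12 lower in A375, against 43.8% of all genes. Between SKMEL28 and WM164, 23 chains were called, 7 higher and 16 lower in SKMEL28, against 28.7% of all genes. Each pair of these comparisons shares the GFP libraries of a line.

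Of the fibrillar chains, COL5A2 was called higher in A375 than in both other lines and COL3A1 likewise, COL5A3, COL11A1 and COL24A1 were called lower in A375 than in both, and COL11A2 was called lower than in WM164. COL1A1, COL5A1 and COL27A1 were called higher in A375 than in SKMEL28 and lower in SKMEL28 than in WM164. SKMEL28 was called higher than WM164 for COL5A2 and COL11A1 and lower for COL11A2. Of the other types, COL8A1, COL12A1 and COL13A1 were called higher in A375 than in both other lines, while COL7A1, COL9A2, COL16A1, COL19A1, COL22A1, COL25A1, COL15A1 and COL18A1 were called lower in A375 than in both. COL6A1, COL6A2 and COL9A3 were called lower than in WM164 and higher than in SKMEL28, COL9A1 and COL14A1 lower and COL17A1 higher than in WM164, and COL6A5 lower than in SKMEL28. Between SKMEL28 and WM164, COL4A2, COL4A5, COL6A5, COL12A1 and COL22A1 were called higher in SKMEL28, and COL4A1, COL6A1, COL6A2, COL7A1, COL8A1, COL9A1, COL9A2, COL9A3, COL13A1, COL14A1, COL15A1 and COL18A1 lower.

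Some of these calls were lost with 1 GFP library left out. COL17A1, a hemidesmosome collagen with 21, 23 and 8 counts in A375 and 2, 3 and 0 in WM164 GFP libraries, lost its call without A375 replicate 1 or 2 or WM164 replicate 1 or 3 (edgeR adjusted p of 0.0582, 0.0712, 0.0649 and 0.104). Between A375 and SKMEL28, COL24A1 was lost without any A375 library or SKMEL28 replicate 1 or 2 (edgeR adjusted p of up to 0.0916), and COL5A1 without A375 replicate 3 or SKMEL28 replicate 1 (0.0694 and 0.0756). Between SKMEL28 and WM164, COL9A2 was lost without SKMEL28 replicate 2 or 3 or WM164 replicate 1 or 2, and COL14A1 without SKMEL28 replicate 1 or 3 or WM164 replicate 2 or 3 (edgeR adjusted p of up to 0.0783 and 0.0820).

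Type IV chains were high in A375. Their summed TPM was 78.6, 65.1 and 60.3 in the A375 GFP libraries, 0.440 to 0.530 in those of WM164 and 0.260 to 0.720 in those of SKMEL28, and all 5 type IV chains tested (COL4A1, COL4A2, COL4A4, COL4A5 and COL4A6) were called higher in A375 than in either other line. COL4A1 was at 57.8, 57.1 and 64.6 CPM in A375 and 2.68, 2.36 and 2.53 CPM in WM164 GFP libraries, a log2 difference of 4.57 (SE 0.19, edgeR adjusted p = 7.11e-15). COL4A5, a chain of the network of kidney and skin basement membranes, had 293, 271 and 352 counts in A375 and 0 counts in every library of WM164. COL4A3 was at or near 0 in every library, with at most 7 counts, and was not tested.

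The chains that led in WM164 and SKMEL28 were low elsewhere. COL11A1 was at 168, 168 and 166 CPM in the SKMEL28 and 0.393, 0.232 and 0.198 CPM in the WM164 GFP libraries, a log2 difference of 9.23 (SE 0.24, edgeR adjusted p = 3.19e-17), and had 2 counts in all in those of A375. COL9A3 was at 122, 105 and 107 CPM in WM164 and 0.466, 1.18 and 0.759 CPM in SKMEL28, a log2 difference of -7.18 (SE 0.25, edgeR adjusted p = 2.06e-15) for SKMEL28 against WM164, and in A375 it was at 1.46, 3.86 and 2.32 CPM. COL6A1, which builds beaded filaments with COL6A2, was at 148, 142 and 123 CPM in WM164, 25.6, 21.1 and 23.3 CPM in A375 and 2.96, 1.57 and 2.38 CPM in SKMEL28. COL6A2 followed the same order, with 58.5, 66.9 and 57.9, 9.28, 7.88 and 9.35 and 3.40, 3.30 and 3.97 CPM, and for neither gene did libraries of different lines overlap.

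Chains that join in a molecule were often at unequal mRNA levels. COL6A3, the partner of COL6A1 and COL6A2 in the classical type VI molecule, had a TPM that was 0.00412 to 0.0101 of that of COL6A1 in WM164 GFP libraries, 0.0137 to 0.270 in A375 and 0.129 to 0.941 in SKMEL28. In the A375 GFP libraries the deposited TPM of COL6A3 was 0.36, 0.07 and 1.44 from 61, 28 and 54 counts, so it spread more than the counts. For type IX, COL9A1 was at 0.257 ± 0.0777 TPM and COL9A2 at 0.557 ± 0.306 TPM in WM164 GFP cells, beside the 49.7 TPM of COL9A3. For type V, COL5A1 was at 0.0367 ± 0.0153 TPM in A375 GFP cells, where COL5A2 was at 15.4 ± 1.38 TPM. For type I, the chain COL1A1 was at 0.680 ± 0.291 TPM in A375 GFP cells and 0.617 ± 0.251 TPM with MAFG, and COL1A2 at 0.0133 ± 0.0231 TPM, with 7 counts in 1 A375 GFP library and 0 in the others.

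With MAFG, the summed collagen TPM of WM164 was 102, 122 and 106 in the GFP libraries and 252, 246 and 227 in the MAFG libraries, without overlap. It was 56.5 to 63.9 with GFP and 62.0 to 65.2 with MAFG in SKMEL28 and 119.7 to 151 and 127 to 157 in A375, where the groups overlap. Most of the higher sum of WM164 lay in the other types, at 94.1 to 113 TPM with GFP and 213 to 238 TPM with MAFG, and COL9A3 alone went from 49.7 ± 3.59 to 119.6 ± 3.86 TPM. The fibrillar sum of WM164 was 7.10 to 8.16 and 12.1 to 13.6 TPM, and the type IV sum 0.440 to 0.530 and 1.74 to 2.23 TPM. No test was run on these sums.

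**Figure D2:**
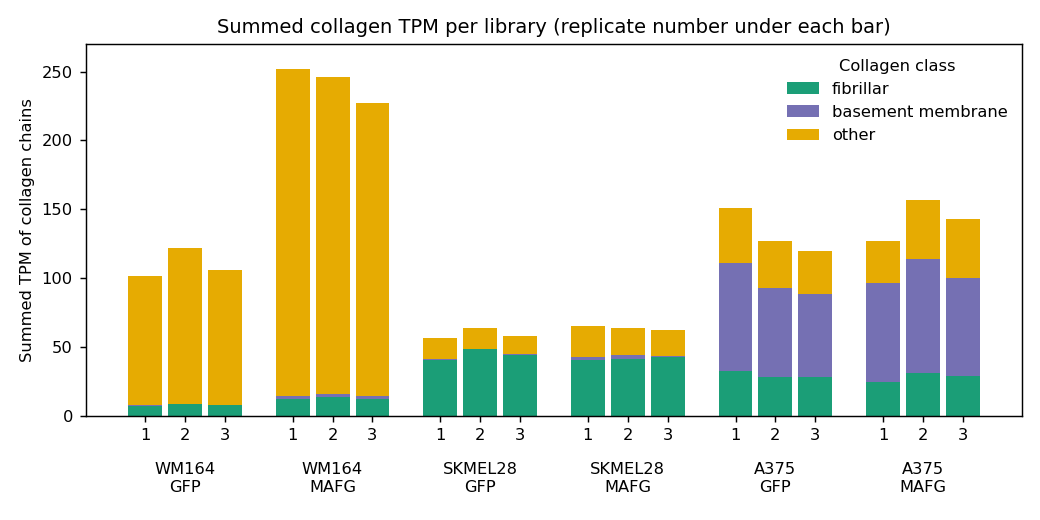
Summed TPM of the fibrillar, type IV (basement membrane) and other collagen chains in each of the 18 libraries, as stacked bars from 0, with replicate numbers under the bars. The 3 WM164 MAFG libraries reach 227 to 252 TPM against 102 to 122 with GFP, the type IV share is visible mainly in A375, and in SKMEL28 most of the bar is fibrillar.

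In WM164 cells, MAFG went with higher levels of collagen mRNA in all 3 classes. Of the 29 chains tested, 18 rose and 1 fell, where 4.94% of all 15919 genes tested were called higher and 2% lower, and 9 others did not pass the test. The median log2 fold change of the 29 was 1.14 beside -0.00 over all genes tested. The largest changes were those of COL12A1 (log2 fold change 5.28), COL4A2, COL22A1, COL5A1, COL9A1 and COL8A1, which belong to the FACITs, the basement membrane network, the fibrils and the short-chain network. In 24 of the 29 chains the MAFG and GFP libraries did not overlap, as in 43.4% of all genes tested. The plot of log2 fold changes shows every tested chain of the 3 lines.

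**Figure D3:**
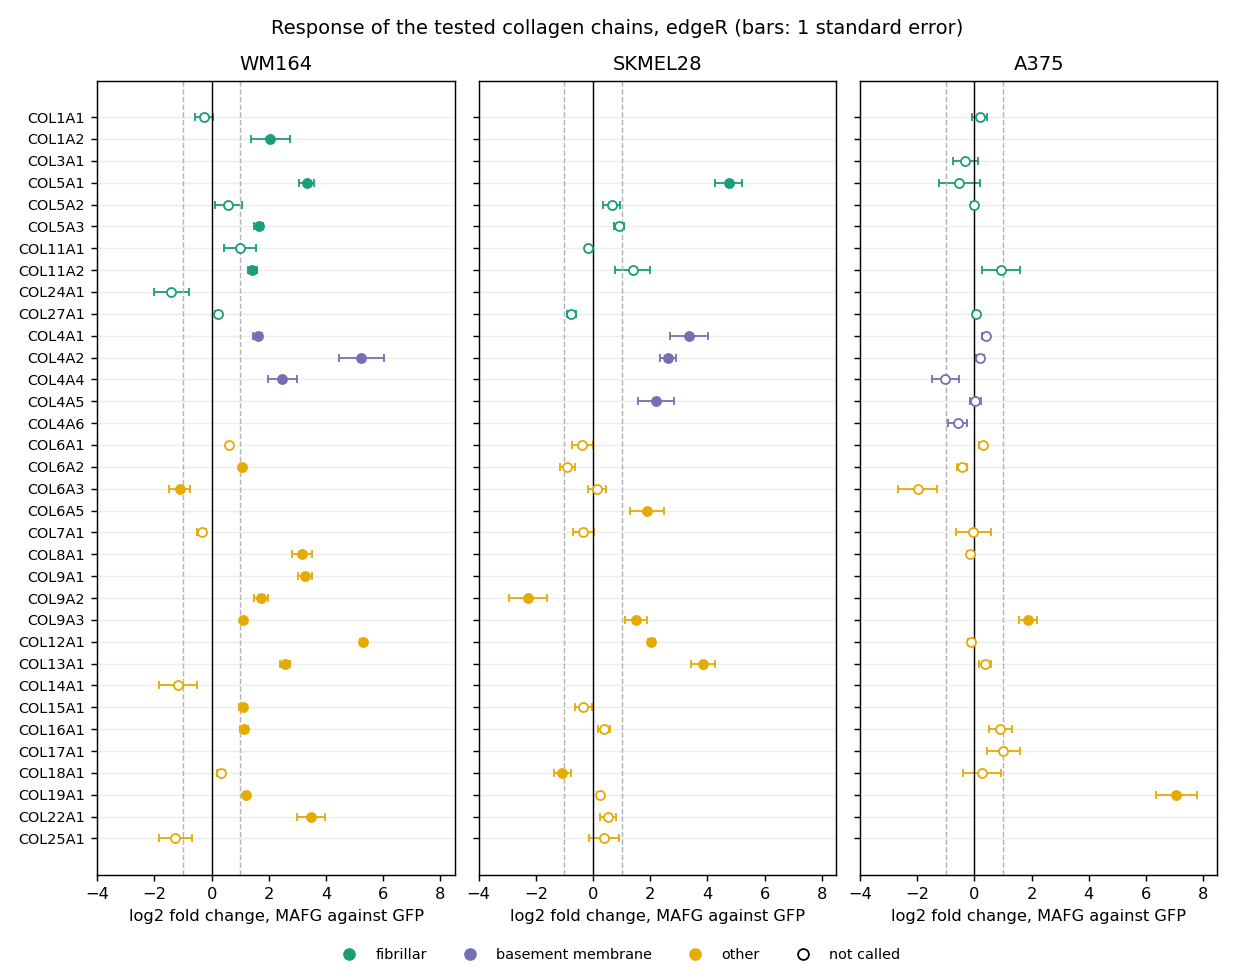
Log2 fold change of MAFG against GFP (horizontal axis, bars 1 standard error, dashed lines at 2-fold) for the 34 collagen chains tested in at least 1 line, from the edgeR fit of each line, coloured by class and filled where called. In WM164, 18 points are filled right of 0 and 1 left of it, in SKMEL28 8 and 2, and in A375 2, COL9A3 and COL19A1.

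Of the fibrillar class, 9 of 11 chains were tested in WM164 and 4 rose. COL5A1 (ENSG00000130635.15, chromosome 9 from 134641803 to 134844843 of GRCh38), the main chain of type V, was at 0.821, 0.431 and 0.948 CPM with GFP and 7.52, 6.32 and 7.88 CPM with MAFG, a log2 fold change of 3.32 (SE 0.25, edgeR adjusted p = 1.07e-08). COL5A3, a rarer chain of type V, was at 3.78, 3.09 and 2.73 CPM with GFP and 10.5, 8.65 and 10.8 CPM with MAFG, a log2 fold change of 1.64 (SE 0.16, edgeR adjusted p = 3.09e-07). COL11A2, the α2 chain of type XI, was at 8.17, 4.78 and 6.91 CPM with GFP and 16.3, 17.7 and 19.0 CPM with MAFG, a log2 fold change of 1.42 (SE 0.15, edgeR adjusted p = 7.71e-07). In each of these genes the lowest MAFG library lay above the highest GFP library.

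COL1A2, the α2 chain of type I, rests on few reads. It had 1, 7 and 2 counts in the WM164 GFP libraries and 16, 16 and 12 with MAFG, a log2 fold change of 2.05 (SE 0.67, edgeR adjusted p = 0.0268). Its call was lost without MAFG replicate 1 or 2 or GFP replicate 1 or 3 (edgeR adjusted p of 0.0888, 0.0984, 0.122 and 0.112). Its partner COL1A1 had 46, 46 and 43 counts with GFP and 37, 43 and 38 with MAFG, with a log2 fold change of -0.26 (SE 0.32, edgeR adjusted p = 0.592), while its deposited TPM was 0.163 ± 0.0115 with GFP and 0.263 ± 0.0289 with MAFG. The other fibrillar chains that did not pass had log2 fold changes from -1.41 (COL24A1) to 0.99 (COL11A1), with COL5A2 at 0.58 and COL27A1 at 0.22 between them. COL3A1, the fibrillar chain of extensible tissues, was below the filter for low counts, with 0 counts in every GFP library and 10, 18 and 11 with MAFG.

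All 3 type IV chains tested in WM164 rose. COL4A2 (ENSG00000134871.18, chromosome 13 from 110305812 to 110513209), which joins COL4A1 in the main basement membrane network, had 2, 0 and 0 counts with GFP and 34, 25 and 35 with MAFG, or 1.19, 0.924 and 1.08 CPM. From the 2 counts of the GFP libraries and the 94 of the MAFG libraries, the ratio of the depth-scaled sums was 44.6, with a 95% Clopper-Pearson interval of 12 to 374 that covers counting error only (edgeR adjusted p = 5.11e-05). COL4A1 (ENSG00000187498.16, chromosome 13 from 110148963 to 110307157) was at 2.68, 2.36 and 2.53 CPM with GFP and 8.5, 7.39 and 7.11 CPM with MAFG, a log2 fold change of 1.60 (SE 0.17, edgeR adjusted p = 6.86e-07). COL4A4, which pairs with COL4A3 and COL4A5 in specialised basement membranes, was at 0.5, 0.464 and 0.0790 CPM with GFP and 2.13, 2.59 and 1.24 CPM with MAFG, a log2 fold change of 2.47 (SE 0.51, edgeR adjusted p = 0.00108). The ratio of COL4A2 to COL4A1 TPM in WM164 MAFG libraries was 0.212 to 0.469, against 4.93 to 5.35 in A375 GFP libraries.

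COL4A1 and COL4A2 lie head to head on chromosome 13, and the start sites RefSeq gives for them are 127 bases apart. The window from 250 bases before to 50 bases after the COL4A2 start is shown because it holds both starts of a pair whose members rose together in WM164 and SKMEL28 and are both high in A375. It is chr13:110307034-110307333 of GRCh38.p14 on the plus strand, and the capitals run from the start site of COL4A1, which is read from the other strand, to that of COL4A2.
COL4A2: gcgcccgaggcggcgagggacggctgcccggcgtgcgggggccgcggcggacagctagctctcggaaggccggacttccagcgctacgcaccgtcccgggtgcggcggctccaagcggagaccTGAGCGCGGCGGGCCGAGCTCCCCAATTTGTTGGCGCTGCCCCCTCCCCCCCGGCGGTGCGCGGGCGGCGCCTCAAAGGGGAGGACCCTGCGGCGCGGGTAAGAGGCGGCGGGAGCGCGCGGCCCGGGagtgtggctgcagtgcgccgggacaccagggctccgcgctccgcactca
Of the 300 bases 77.7% are G or C. The genes overlap on opposite strands in the annotation, and the labels and the methods differ on whether the libraries keep the strand, so that reads in the overlap may not be told apart.

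Among the other types in WM164, 17 of 27 chains were tested, 11 rose and 1 fell, and 7 of the 8 FACITs tested were among those that rose. COL12A1 (ENSG00000111799.21, chromosome 6 from 75084326 to 75206267), a FACIT of fascia and fibril surfaces, was at 1.43, 1.79 and 1.34 CPM with GFP and 63.9, 57.0 and 58.8 CPM with MAFG, a log2 fold change of 5.28 (SE 0.12, edgeR adjusted p = 8.81e-16). COL22A1, a FACIT of tissue junctions, had 6, 3 and 5 counts with GFP and 54, 64 and 49 with MAFG, a log2 fold change of 3.47 (SE 0.48, edgeR adjusted p = 1.83e-05). COL19A1 was at 51.1, 52.0 and 50.4 CPM with GFP and 124, 118 and 114 CPM with MAFG, a log2 fold change of 1.21 (SE 0.06, edgeR adjusted p = 2.95e-11), and COL16A1 at 4.85, 5.41 and 4.19 CPM with GFP and 11.4, 9.35 and 11.2 CPM with MAFG, with 1.14 (SE 0.14, edgeR adjusted p = 5.94e-06). In none of these 4 genes did the groups overlap.

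All 3 chains of type IX, a FACIT of cartilage and the eye, rose in WM164. COL9A1 was at 0.928, 1.69 and 0.514 CPM with GFP and 10.8, 10.6 and 9.33 CPM with MAFG, a log2 fold change of 3.26 (SE 0.25, edgeR adjusted p = 1.32e-08). COL9A2 was at 1.89, 2.12 and 0.988 CPM with GFP and 5.84, 5.06 and 5.87 CPM with MAFG, with 1.73 (SE 0.24, edgeR adjusted p = 2.37e-05). COL9A3 (ENSG00000092758.17, chromosome 20 from 62816244 to 62841159), the most abundant collagen mRNA of this line, was at 122, 105 and 107 CPM with GFP and 248, 234 and 229 CPM with MAFG, with 1.09 (SE 0.06, edgeR adjusted p = 3.31e-10). Their levels remained unequal: the ratio of COL9A1 to COL9A3 TPM was 0.00369 to 0.00643 with GFP and 0.0133 to 0.0269 with MAFG.

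The chains of type VI changed in both directions in WM164. COL6A2 was at 58.5, 66.9 and 57.9 CPM with GFP and 140.2, 126 and 118 CPM with MAFG, a log2 fold change of 1.07 (SE 0.07, edgeR adjusted p = 2.77e-09), and without MAFG replicate 1 its log2 fold change was 0.997, just under 2-fold. COL6A1 passed the test below 2-fold, at 148, 142 and 123 CPM with GFP and 223, 209 and 198 CPM with MAFG, with 0.61 (SE 0.07, edgeR adjusted p = 1.93e-06). COL6A3 was lower with MAFG, at 1.93, 1.96 and 1.62 CPM with GFP and 0.735, 0.628 and 1.14 CPM with MAFG, with -1.12 (SE 0.36, edgeR adjusted p = 0.0253). That call was lost without MAFG replicate 1 or 2 or GFP replicate 1 or 2 (edgeR adjusted p of 0.0752, 0.0841, 0.0650 and 0.0678). The direction of COL6A3 was the same in each of these fits.

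A further 3 chains of WM164 rose. COL13A1 (ENSG00000197467.14, chromosome 10 from 69801880 to 69964275), a membrane-spanning collagen of cell adhesions, was at 1.61, 2.36 and 1.62 CPM with GFP and 10.2, 12.5 and 10.8 CPM with MAFG, a log2 fold change of 2.57 (SE 0.17, edgeR adjusted p = 2.5e-09). COL8A1, the network chain of vessel walls and the cornea, was at 0.678, 0.863 and 0.158 CPM with GFP and 5.35, 5.73 and 4.42 CPM with MAFG, with 3.14 (SE 0.35, edgeR adjusted p = 1.52e-06). COL15A1, a multiplexin, was at 6.64, 7.33 and 7.82 CPM with GFP and 14.9, 15.2 and 15.9 CPM with MAFG, with 1.08 (SE 0.11, edgeR adjusted p = 5.57e-07). Of the chains that did not pass, COL18A1 had a log2 fold change of 0.32, COL7A1 (the anchoring fibrils of skin) of -0.35, COL14A1 of -1.18 and COL25A1 of -1.27. Beside these changes, the summed fibroblast markers were at 37.7, 37.6 and 39.3 CPM with GFP and 60.8, 61.7 and 62.1 CPM with MAFG. In that sum PRRX1 went from 15.1, 15.0 and 17.3 to 36.5, 36.7 and 37.5 CPM and PDGFRA from 4.36, 3.62 and 3.44 to 14.9, 15.1 and 14.6 CPM, LUM went from 17.9, 17.9 and 17.7 to 8.82, 9.28 and 8.78 CPM, and THY1 was at 0 in both groups. COL1A1, the chain that fibroblasts make in bulk, was at 1.70 CPM or less in every WM164 library. The summed melanocytic markers were at 3396, 3529.8 and 3349.6 CPM with GFP and 2292, 2295 and 2233 CPM with MAFG, with MLANA at 325, 343 and 329 and 62.5, 64.7 and 61.1 CPM, and CD68 at 138, 128 and 122 and 58.0, 54.7 and 51.5 CPM. The means of MITF, PMEL and TYR were 439, 931.5 and 141 CPM with GFP and 280, 340 and 48.2 CPM with MAFG. SOX10 was at 1429, 1357 and 1321 and 1340, 1324 and 1321 CPM, with overlapping groups. S100B, at 212, 204 and 221 and 209, 212 and 223 CPM, overlapped as well. The part of the marker genes in the collagen changes was not tested.

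**Figure D4:**
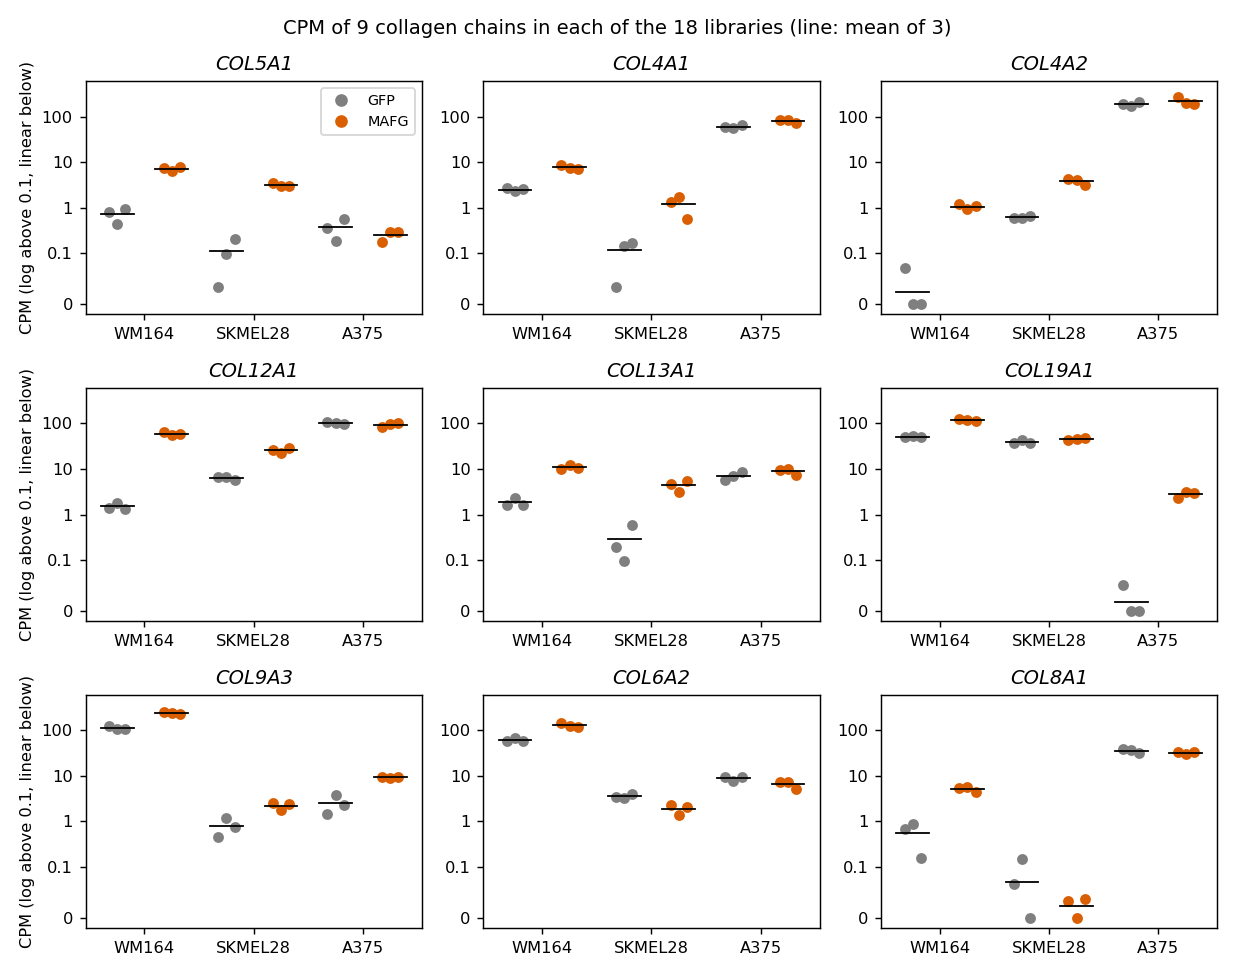
CPM of 9 collagen chains in each of the 18 libraries (points, GFP grey and MAFG orange, horizontal line the mean of 3), on an axis that is logarithmic above 0.1 CPM and linear below. COL5A1, COL4A1, COL4A2, COL12A1 and COL13A1 are higher with MAFG in every library of WM164 and SKMEL28, COL9A3 in every library of all 3 lines, and COL19A1 goes from 2 counts in all to 2.27 CPM or more in A375.

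In SKMEL28 cells, 24 chains were tested, 8 rose and 2 fell, where 1.76% of all 15523 genes tested were called higher and 2.98% lower. The median log2 fold change of the 24 was 0.46 beside -0.01 over all genes tested, and in 16 of them the groups did not overlap, as in 43% of all genes. Those that rose were the type IV chains COL4A1, COL4A2 and COL4A5, the fibrillar COL5A1, the FACITs COL12A1 and COL9A3, the type VI chain COL6A5 and the membrane-spanning COL13A1, and those that fell were COL9A2 and COL18A1. COL11A1, the leading chain of this line, was at 168, 168 and 166 CPM with GFP and 143, 148 and 148 CPM with MAFG, and passed the test at a small change, a log2 fold change of -0.19 (SE 0.05, edgeR adjusted p = 0.0119). A further 4 chains passed below 2-fold, COL5A3 (0.90) and COL19A1 (0.23) higher and COL27A1 (-0.76) and COL6A2 (-0.89) lower. With no limit on the fold, 14.6% of all genes passed higher and 15.3% lower.

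Of the fibrillar chains of SKMEL28, COL5A1 changed most, with 1, 2 and 6 counts with GFP and 104, 82 and 82 with MAFG, or 3.47, 2.94 and 3.08 CPM, a log2 fold change of 4.75 (SE 0.47, edgeR adjusted p = 1.70e-06). All 3 type IV chains tested rose here too, from low levels. COL4A2 was at 0.600, 0.591 and 0.656 CPM with GFP and 4.24, 4.09 and 3.12 CPM with MAFG, with 2.62 (SE 0.29, edgeR adjusted p = 5.53e-06). COL4A1 had 1, 3 and 5 counts with GFP and 40, 48 and 15 with MAFG, with 3.35 (SE 0.66, edgeR adjusted p = 0.00120), and in both chains MAFG replicate 3 was the lowest of its group. COL4A5 had 8, 1 and 10 and 53, 25 and 15 counts, with 2.20 (SE 0.63, edgeR adjusted p = 0.0144). Its call was lost without MAFG replicate 1 or GFP replicate 2 (edgeR adjusted p = 0.127 and 0.0539).

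Among the other types in SKMEL28, COL12A1 was at 6.76, 6.69 and 5.66 CPM with GFP and 26.5, 22.6 and 29.3 CPM with MAFG, a log2 fold change of 2.04 (SE 0.12, edgeR adjusted p = 7.08e-09). COL13A1 was at 0.200, 0.0984 and 0.587 CPM with GFP and 4.77, 3.19 and 5.55 CPM with MAFG, with 3.84 (SE 0.42, edgeR adjusted p = 5.51e-06), and COL9A3 at 0.466, 1.18 and 0.759 CPM with GFP and 2.5, 1.79 and 2.40 CPM with MAFG, with 1.51 (SE 0.38, edgeR adjusted p = 0.00714). In contrast to COL9A3, COL9A2 had 26, 12 and 14 counts with GFP and 3, 6 and 2 with MAFG, with -2.28 (SE 0.65, edgeR adjusted p = 0.0149). The call of COL9A2 was lost without MAFG replicate 1 or 3 or GFP replicate 1 (edgeR adjusted p of 0.0664, 0.0660 and 0.111). Type IX chains thus changed in opposite directions in this line, and in the same direction in WM164.

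The other 2 calls of SKMEL28 were also lost with some libraries left out. COL6A5, a type VI chain of skin, had 3, 10 and 10 counts with GFP and 34, 46 and 15 with MAFG, a log2 fold change of 1.88 (SE 0.60, edgeR adjusted p = 0.0259). It was lost without MAFG replicate 1 or 2 or GFP replicate 1 or 3 (edgeR adjusted p of 0.0674, 0.143, 0.125 and 0.0601). COL18A1, the multiplexin that carries endostatin, was at 3.46, 2.95 and 2.45 CPM with GFP and 1.3, 1.87 and 1.05 CPM with MAFG, with -1.07 (SE 0.29, edgeR adjusted p = 0.0117). Without MAFG replicate 3 or GFP replicate 1 its log2 fold change was -0.90 and -0.93, under 2-fold, and without GFP replicate 1 it also missed the test (edgeR adjusted p = 0.0747). COL18A1 overlaps the gene SLC19A1 on the opposite strand, so that part of its reads may belong to SLC19A1. The summed fibroblast markers were at 11.4, 12.3 and 13.0 CPM with GFP and 21.3, 18.5 and 20.6 CPM with MAFG, nearly all of it LUM, while PRRX1 and THY1 were at 0. The melanocytic markers summed to 4101 to 4358 and 3517 to 3688 CPM, and CD68 was at 367, 314 and 392 and 226, 232 and 231 CPM. In the melanocytic sum PMEL went from 1823, 1696 and 1572 to 1105, 1130 and 982 CPM. The means of MITF and TYR were 648 and 170 CPM with GFP and 564 and 144 CPM with MAFG. S100B went from 282, 246 and 284 to 400, 398 and 416 CPM. The means of SOX10 and MLANA were 892 and 510 CPM with GFP and 910 and 524 CPM with MAFG. Their part in the collagen changes was not tested.

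In A375 cells, 23 chains were tested and 2 rose, COL19A1 and COL9A3, where 0.646% of all 15779 genes tested were called higher and 0.019% lower. The median log2 fold change of the 23 was 0.05 beside -0.00 over all genes, and in 10 of them the groups did not overlap, as in 12.3% of all genes. On the 6 libraries of A375, no chain was called lower by edgeR or DESeq2. In that direction 2 chains had an unadjusted p under 0.05 in edgeR. COL6A3 had 61, 28 and 54 counts with GFP and 13, 21 and 4 with MAFG. It was called lower in the model of all 18 libraries, with a log2 fold change of -1.98 (edgeR adjusted p = 0.0276). The number called was 2 also without MAFG replicate 1, the library that stood apart. Of the chains that lead in this line none passed the test. COL4A1 was at 57.8, 57.1 and 64.6 CPM with GFP and 83.6, 82.0 and 70.7 CPM with MAFG, without overlap. COL4A2 was at 184, 173 and 209 CPM with GFP and 267, 200.4 and 184 CPM with MAFG, with overlapping groups, its highest value in MAFG replicate 1, and a log2 fold change of 0.20 (SE 0.13, edgeR adjusted p = 0.997), and COL5A2 had -0.02 (SE 0.09, edgeR adjusted p = 0.997), COL27A1 0.05 (SE 0.11, edgeR adjusted p = 0.997) and COL12A1 -0.10 (SE 0.12, edgeR adjusted p = 0.997).

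COL19A1 (ENSG00000082293.13, chromosome 6 from 69866556 to 70212468), a FACIT of muscle and brain basement membrane zones, had 2, 0 and 0 counts in the A375 GFP libraries and 90, 120 and 131 with MAFG, or 2.27, 3.18 and 3.05 CPM. The ratio of the depth-scaled sums was 157, with a 95% Clopper-Pearson interval of 43.2 to 1304 for counting error (edgeR adjusted p = 0.000956). It remained far below its level in the other lines, where it was at 124, 118 and 114 CPM in WM164 and 43.5, 44.9 and 47.9 CPM in SKMEL28 MAFG libraries. COL9A3 was at 1.46, 3.86 and 2.32 CPM with GFP and 9.60, 9.04 and 9.44 CPM with MAFG, a log2 fold change of 1.88 (SE 0.30, edgeR adjusted p = 0.0170). Its call was lost without MAFG replicate 2 or GFP replicate 3 (edgeR adjusted p = 0.0808 and 0.119), and the number of chains called was then 1. COL19A1 and COL9A3 overlap the genes LMBRD1 and TCFL5 on the opposite strand, so that part of their reads may belong to these.

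Other values moved with the 2 calls of A375. Both genes are high in WM164, and the summed melanocytic markers of A375 went from 36.1, 35.3 and 41.6 CPM with GFP to 172, 135 and 120.0 CPM with MAFG, most of it SOX10, at 6.93, 8.15 and 11.5 and 142, 102 and 97.9 CPM, while MLANA and TYR stayed at 0 and PMEL was at 0.227, 0.0795 and 0.512 CPM with MAFG. MITF did not rise as a group, at 29.0, 27.1 and 29.7 CPM with GFP and 29.4, 32.3 and 20.4 CPM with MAFG. S100B was at 0.130, 0.0543 and 0.0279 CPM with GFP and 0.480, 0.954 and 1.12 CPM with MAFG. The fibroblast markers summed to 6.33 to 8.09 and 12.3 to 15.4 CPM. In that sum PRRX1 went from 0.339, 0.462 and 0.670 to 7.84, 8.61 and 6.56 CPM, and the mean of LUM from 0.164 to 0.955 CPM. TWIST2 was at 5.68, 5.90 and 6.70 CPM with GFP and 6.02, 4.80 and 4.16 CPM with MAFG. DCN, FAP, THY1 and PDGFRA were at 0.477 CPM or less in every A375 library. COL15A1, at 427, 410 and 515 counts in WM164 MAFG libraries, was at 0 in each A375 MAFG library, as were MLANA and TYR, which are at 62.5, 64.7 and 61.1 and 49.3, 53.0 and 42.2 CPM in WM164 MAFG libraries. The part of SOX10 in the change of both collagen genes was not tested.

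Across the lines, COL9A3 was called higher with MAFG in all 3, COL12A1, COL13A1, COL4A1, COL4A2 and COL5A1 in WM164 and SKMEL28, and COL19A1 in WM164 and A375. COL9A2 was called in opposite directions in WM164 and SKMEL28. Of the 34 chains tested in at least 1 line, 22 were called in at least 1. The share of all genes called in at least 1 line was not computed, so only the shares of each line, given above, can stand beside it. A further 10 of the 44 chains were below the filter for low counts in the fits of the lines and of all 18 libraries (COL10A1, COL20A1, COL21A1, COL23A1, COL26A1, COL28A1, COL2A1, COL4A3, COL6A6 and COL8A2). Of those 10, COL6A6 and COL8A2 had at most 2 counts in any library. In bulk RNA, more cells that make a chain and more RNA per cell cannot be told apart.

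The differences between responses were tested as interactions in a model of all 18 libraries, in which 34 chains were tested. The response of WM164 minus that of SKMEL28 was called for 10 chains, 9 positive and 1 negative, where 5.1% of all genes were called. Without WM164 MAFG replicate 2, WM164 GFP replicate 3 or SKMEL28 MAFG replicate 1 that number was 5, 6 and 6. The response of WM164 minus that of A375 was called for 10 chains, 9 positive and 1 negative, against 4.39% of all genes, and that of SKMEL28 minus that of A375 for 10, 7 positive and 3 negative, against 4.2%. Each pair of these contrasts shares a line. COL12A1 had the smallest SE of the called differences in all 3, with WM164 over SKMEL28 by 3.25 (SE 0.19, edgeR adjusted p = 1.55e-10), WM164 over A375 by 5.39 (SE 0.17, edgeR adjusted p = 2.18e-14) and SKMEL28 over A375 by 2.14 (SE 0.15, edgeR adjusted p = 8.70e-09) on the log2 scale. The level of COL12A1 in A375 GFP cells, at 107, 99.6 and 95.8 CPM, was above that of WM164 with MAFG, at 63.9, 57.0 and 58.8 CPM.

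COL5A1 responded more in WM164 and SKMEL28 than in A375, by 3.83 (SE 0.60, edgeR adjusted p = 0.000156) and 5.27 (SE 0.68, edgeR adjusted p = 2.22e-05) on the log2 scale. COL13A1 did so as well, by 2.20 (SE 0.37, edgeR adjusted p = 0.000379) and 3.46 (SE 0.45, edgeR adjusted p = 2.39e-05). For the type IV pair, COL4A1 differed from A375 by 1.21 (SE 0.24) in WM164 and 2.98 (SE 0.49) in SKMEL28, and COL4A2 by 5.06 (SE 0.64) and 2.42 (SE 0.28). COL4A2 had 2 counts in all in the WM164 GFP libraries and COL4A1 had 9 in those of SKMEL28, so 5.06 and 2.98 rest on few reads. In CPM, the mean of COL4A1 went from 59.9 to 78.8 in A375, from 2.52 to 7.67 in WM164 and from 0.118 to 1.21 in SKMEL28. The response of COL6A2 in WM164 differed from those of the other lines, by 1.97 (SE 0.22, edgeR adjusted p = 2.87e-06) from SKMEL28 and 1.5 (SE 0.19, edgeR adjusted p = 1.05e-05) from A375. COL19A1 had the opposite order, with -5.80 for WM164 minus A375 (edgeR adjusted p = 6.97e-09), a fitted value that rests on the 2 counts of the A375 GFP libraries and turned positive on the log2(TPM + 1) scale, where low levels weigh little.

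The genes that process collagen in the cell and outside it were taken as lists of 21 biosynthesis, 13 processing and 10 receptor genes. In WM164, 20 biosynthesis genes (hydroxylases, chaperones and export factors) were tested, 10 passed the test higher and 1 lower, all below 2-fold, with a median log2 fold change of 0.19. The largest was PLOD1, a lysyl hydroxylase, at 0.58, and SERPINH1, the collagen chaperone HSP47, was at 0.42, while CRTAP, which acts in prolyl 3-hydroxylation, was at -0.28. All 8 processing genes tested passed the test higher, with a median of 1.22, and 5 were called: the N-propeptidases ADAMTS2 (2.18, SE 0.21, edgeR adjusted p = 3.18e-07) and ADAMTS14 (1.87, SE 0.34, edgeR adjusted p = 0.000319), the C-proteinase enhancer PCOLCE (1.27, SE 0.08, edgeR adjusted p = 1.45e-09), and the crosslinking oxidases LOXL2 (2.28, SE 0.06, edgeR adjusted p = 9.79e-15) and LOXL3 (1.17, SE 0.06, edgeR adjusted p = 1.25e-10). The call of ADAMTS14 was lost in the model of all 18 libraries (edgeR adjusted p = 0.134). LOXL2 was at 44, 47.6 and 43.3 CPM with GFP and 228, 221 and 208 CPM with MAFG.

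All 7 collagen receptor genes tested in WM164 passed the test higher (median 0.90 on the log2 scale), and 3 were called, all integrin α chains that bind collagen. ITGA11 was at 1.29, 1.26 and 1.15 CPM with GFP and 15.9, 15.7 and 16.8 CPM with MAFG, a log2 fold change of 3.71 (SE 0.15, edgeR adjusted p = 1.68e-12). ITGA1 was at 13.8, 14.5 and 12.7 CPM with GFP and 98.5, 91.8 and 93.2 CPM with MAFG, with 2.78 (SE 0.07, edgeR adjusted p = 8.5e-15), and ITGA10 at 11.3, 10.3 and 9.56 CPM with GFP and 51.7, 50.5 and 45.5 CPM with MAFG, with 2.24 (SE 0.09, edgeR adjusted p = 2.53e-12). Their shared partner ITGB1 was at 0.22 and the receptor kinases DDR1 and DDR2 at 0.90 and 0.35, all below 2-fold. Over all genes tested in WM164, 16.2% passed the test higher and 15.6% lower with no limit on the fold.

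In SKMEL28, LOXL2 was the only gene of the 3 lists called higher by edgeR, at 9.19, 7.53 and 7.66 CPM with GFP and 31.4, 27.0 and 26.2 CPM with MAFG, a log2 fold change of 1.79 (SE 0.11, edgeR adjusted p = 1.19e-08). P3H2, a prolyl 3-hydroxylase of type IV collagen, fell, at 53.5, 43.0 and 50.1 CPM with GFP and 13.8, 17.5 and 17.4 CPM with MAFG, with -1.59 (SE 0.10, edgeR adjusted p = 1.81e-08). COLGALT2, a collagen galactosyltransferase, was lower with -1.16 (SE 0.36, edgeR adjusted p = 0.0221), and its call was lost without MAFG replicate 1 or 3 or GFP replicate 1 or 2 (edgeR adjusted p of 0.0742, 0.0642, 0.154 and 0.0504). The medians of the biosynthesis, processing and receptor lists were -0.01, 0.33 and -0.00. In A375, LOXL4, another crosslinking oxidase, was the only gene of the lists called by edgeR, at 10.9, 9.95 and 13.2 CPM with GFP and 31.6, 27.5 and 32.1 CPM with MAFG, with 1.42 (SE 0.14, edgeR adjusted p = 0.000814), and the medians were 0.01, 0.16 and 0.30. The call of LOXL4 was lost on log2(TPM + 1) and log2(TPM + 0.1) (limma adjusted p of up to 0.0967).

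RefSeq promoter windows of 300 bases (GRCh38.p14, from 250 before to 50 after a start) were at hand for 32 of the 44 chains, 44 windows in all. They were searched on both strands for TGCTGA, the core of the element that MAF proteins bind, for the longer antioxidant-type element (TGCTGA followed after any 4 bases by GCA), for the AP-1 site TGANTCA and for the E- and M-box letters CACGTG and CATGTG, without regard to overlaps between them. The core was found in 5 windows of 4 genes (COL10A1, COL5A3, COL7A1 and COL9A1), 11.4% of the collagen windows against 17.3% of 34943 windows of all genes. The longer element and CACGTG were in 0 collagen windows, against 0.358% and 7.23% of all windows, TGANTCA was in 1 (COL10A1; 7.72% of all) and CATGTG in 2 (COL10A1 and COL24A1; 11.1% of all). Of the chains called with MAFG, COL5A3 and COL9A1, both higher in WM164, hold a match to TGCTGA, and their windows are shown with the match in capitals. They lie at chr19:10010455-10010754 and chr6:70303035-70303334, both on the minus strand.
COL5A3: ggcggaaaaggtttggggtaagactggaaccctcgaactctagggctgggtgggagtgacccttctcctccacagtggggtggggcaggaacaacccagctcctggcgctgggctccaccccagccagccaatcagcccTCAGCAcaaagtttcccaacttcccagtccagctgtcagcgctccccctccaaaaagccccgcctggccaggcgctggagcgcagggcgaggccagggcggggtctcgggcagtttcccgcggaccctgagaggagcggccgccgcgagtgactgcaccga
COL9A1: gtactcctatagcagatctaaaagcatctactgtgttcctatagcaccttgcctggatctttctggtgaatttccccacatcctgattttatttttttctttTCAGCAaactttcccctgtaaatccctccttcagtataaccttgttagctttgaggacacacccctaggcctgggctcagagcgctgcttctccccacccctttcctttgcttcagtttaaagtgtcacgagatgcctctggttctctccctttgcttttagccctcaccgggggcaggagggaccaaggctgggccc
In both windows the capitals read TCAGCA, the reverse complement of the searched core. A match is a run of letters and not a measured binding site, and the windows cover only the bases next to the start.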

How the data were processed

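RNA was sequenced from 18 libraries, 3 for each of 6 groups (3 melanoma lines with GFP or MAFG), grouped by the labels. Per the labels and the study's methods, the authors trimmed reads with cutadapt (1.8.1), aligned them with STAR (2.7.7a) to GRCh38 and used featureCounts to count, for each gene, the reads with a unique alignment, and the deposited counts are whole numbers without normalization. The deposited TPM values are a second table of the authors, for which the methods name RSEM (1.3.0 in the submitters' processing notes). The labels name a library kit without strand and the methods a strand-specific kit, and the use of strand in counting and the annotation release are not given in the sources used here. Of the 44 collagen genes, 22 have a gene on the opposite strand that overlaps them, and COL9A3 and COL19A1 are among these. Gene identifiers and positions (GRCh38) are those of GENCODE 44, which held all 44 members.

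Counts were tested per line, on its 6 libraries, with edgeR 4.0.16 (R 4.3.3): genes kept by filterByExpr, TMM library scaling and quasi-likelihood F tests with Benjamini-Hochberg adjustment over all genes tested. Baselines and differences of responses came from 1 model of all 18 libraries. A gene was called at an adjusted p not above 0.05 and more than 2-fold. CPM used TMM factors over the 18 libraries, and a group was at the floor with 3 counts or fewer in each library. Depth was 20122172 to 39025042 counts. The members and gene lists were chosen with earlier results of these data known. All 44 members were followed, the calls of each comparison are named, and pathway genes were named where called or where a list's role needed it. Replicates differed beyond sampling noise, with a mean chi-square per gene of 5.90 to 96.7, and none were merged. DESeq2 1.42.0, no filter on low counts, a mean count of at least 10, log2(TPM + 1) and log2(TPM + 0.1) with limma 3.58.1, other sets of libraries, a replicate block and each library left out were tried. The scripts were tested on simulated data.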

Additional observations from a re-analysis of the deposited data

Results flagged for a closer look

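The responses of the lines to MAFG, on the log2 scale, differed by edgeR's interaction test for 10 collagen chains in each pair of lines, and these contrasts share lines. The cause was not tested for any of them.

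For WM164 minus SKMEL28, the differences in the type IV chains were -1.77 for COL4A1 (SE 0.54, adjusted p = 0.0317), 2.64 for COL4A2 (SE 0.85, adjusted p = 0.0436) and 3.88 for COL4A4 (SE 1.13, adjusted p = 0.0249), by edgeR. COL4A2 had 2 counts in all in the WM164 GFP libraries, so its fitted values are no bound. COL8A1 had 2, 3 and 0 counts in the SKMEL28 GFP and 1, 0 and 1 in the SKMEL28 MAFG libraries and COL4A4 4, 5 and 14 and 0, 8 and 1, so both differences rest on few reads and that of COL8A1 is no bound. Those of type VI and type VIII chains were 1.02 for COL6A1 (SE 0.31, adjusted p = 0.0307), 1.97 for COL6A2 (SE 0.22, adjusted p = 2.87e-06) and 4.42 for COL8A1 (SE 1.38, adjusted p = 0.0374). The FACITs and the multiplexin COL15A1 had 4.02 for COL9A2 (SE 0.73, adjusted p = 0.000710), 3.25 for COL12A1 (SE 0.19, adjusted p = 1.55e-10), 2.95 for COL22A1 (SE 0.66, adjusted p = 0.00493) and 1.43 for COL15A1 (SE 0.31, adjusted p = 0.00385). Leaving out 1 of the 12 libraries ended the call of COL4A2 in 10 cases, COL4A1 in 8, COL6A1 and COL8A1 in 7 each and COL4A4 in 5, with the highest edgeR adjusted p at 0.168 (WM164 GFP replicate 2), 0.174 (SKMEL28 GFP replicate 1), 0.161 (SKMEL28 GFP replicate 1), 0.285 (SKMEL28 GFP replicate 2) and 0.111 (SKMEL28 GFP replicate 3).

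For WM164 minus A375, the fibrillar chains gave 7.15 for COL3A1 (SE 1.35, adjusted p = 0.00306) and 3.83 for COL5A1 (SE 0.60, adjusted p = 0.000156) by edgeR, where COL3A1 was at 0 counts in every WM164 GFP library. The type IV chains gave 1.21 for COL4A1 (SE 0.24, adjusted p = 0.00213), 5.06 for COL4A2 (SE 0.64, adjusted p = 1.27e-05) and 3.48 for COL4A4 (SE 0.96, adjusted p = 0.0251), and COL4A4 lost its call without WM164 MAFG replicate 1 or 2 or WM164 GFP replicate 3, with an edgeR adjusted p of up to 0.0746. The other types gave 1.5 for COL6A2 (SE 0.19, adjusted p = 1.05e-05), 3.28 for COL8A1 (SE 0.35, adjusted p = 1.35e-06), 5.39 for COL12A1 (SE 0.17, adjusted p = 2.18e-14), 2.20 for COL13A1 (SE 0.37, adjusted p = 0.000379) and -5.80 for COL19A1 (SE 0.43, adjusted p = 6.97e-09). On log2(TPM + 1) the differences of COL4A1 and COL4A2 were 0.444 and 0.404 (limma adjusted p of 0.156 and 0.407). That of COL8A1 was 0.943, under 2-fold, while COL6A2, COL12A1 and COL13A1 kept their calls.

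For SKMEL28 minus A375, the fibrillar and type IV chains gave 5.27 for COL5A1 (SE 0.68, adjusted p = 2.22e-05), 2.98 for COL4A1 (SE 0.49, adjusted p = 0.000357), 2.42 for COL4A2 (SE 0.28, adjusted p = 5.35e-06) and 2.15 for COL4A5 (SE 0.59, adjusted p = 0.0297) by edgeR. The other types gave 2.11 for COL6A3 (SE 0.66, adjusted p = 0.0475), 2.14 for COL12A1 (SE 0.15, adjusted p = 8.70e-09) and 3.46 for COL13A1 (SE 0.45, adjusted p = 2.39e-05), and in the opposite direction -5.05 for COL9A2 (SE 0.97, adjusted p = 0.00176), -6.79 for COL19A1 (SE 0.40, adjusted p = 2.87e-10) and -5.34 for COL22A1 (SE 1.19, adjusted p = 0.00699), where COL9A2 had 0, 3 and 0 counts in the A375 GFP and 6, 8 and 11 in the A375 MAFG libraries and COL22A1 had 0, 0 and 0 and 14, 9 and 4. COL19A1 had 2, 0 and 0 counts in the A375 GFP libraries, so its fitted value is no bound. On log2(TPM + 1) the differences of COL19A1 and COL9A2 were -0.28 and -0.24 (limma adjusted p of 0.480 and 0.562). Those of COL4A1, COL4A2 and COL4A5 were 0.0533, 0.677 and 0.298 on that scale (limma adjusted p of 0.932, 0.209 and 0.524), while COL12A1 and COL13A1 kept their calls. Leaving out 1 library ended the call of COL6A3 in 10 cases, with an edgeR adjusted p of up to 0.117 (SKMEL28 GFP replicate 1), and that of COL4A5 in 4, with up to 0.102 (SKMEL28 MAFG replicate 1).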

How the results depend on the processing

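No collagen call within a line changed direction under any alternative run. Numbers of chains called moved most on the TPM scales with limma, where only 15, 8 and 12 chains passed the filter on low values in WM164, SKMEL28 and A375. With log2(TPM + 1) they were 7, 1 and 0 in the 3 lines, 14 for A375 against WM164, 12 for A375 against SKMEL28, 5 for SKMEL28 against WM164, and 4, 4 and 2 for the responses of WM164 minus SKMEL28, WM164 minus A375 and SKMEL28 minus A375. With log2(TPM + 0.1) they were 11, 3 and 0 in the lines. On log2(TPM + 1) the response of WM164 minus SKMEL28 was -0.27 for COL4A2 and 0.39 for COL4A1, and that of WM164 minus A375 was 0.79 for COL19A1, all of the opposite sign to the counts. On that scale the median over all genes stood at 0.14, -0.14 and -0.10 in the 3 lines. With 1 model of all 18 libraries 4 chains were called in A375, COL6A3 (lower) and COL22A1 besides COL9A3 and COL19A1. DESeq2 called 19, 10 and 2 chains in the lines, and in WM164 it did not call COL1A2 (adjusted p = 0.0835). COL3A1 was called higher in WM164 by DESeq2, without the filter and in the 18-library model. The 18-library model lost COL1A2 and COL6A3 in WM164 and COL6A5 and COL18A1 in SKMEL28.

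With 1 library left out, 16 to 20, 7 to 9 and 1 to 2 chains were called in WM164, SKMEL28 and A375, 27 to 29, 26 to 28 and 21 to 22 in the baselines in the order above, and 5 to 11, 9 to 11 and 8 to 11 in the responses. Replicate numbers are shared between groups. Deviations from the group mean had correlations of -0.033 to 0.012 for same-numbered MAFG and GFP libraries of a line, and of -0.027 to 0.050 for the others. These run over all genes kept by the filter, low ones included, so they cannot exclude a shared culture or batch. With the replicate block 19, 10 and 2 chains were called in the lines, 28, 28 and 23 in the baselines and 8, 10 and 9 in the responses. The block ended the response calls of COL4A2, COL6A1 and COL8A1 for WM164 minus SKMEL28 (edgeR adjusted p of 0.0678, 0.0687 and 0.0562) and of COL6A3 for SKMEL28 minus A375 (0.103), and COL6A3 was also lost with the 12 libraries of both lines alone (0.0950). Depth limits the chains with few counts, and 10 of 44 passed the filter on low counts in no comparison. Without that filter and by DESeq2, COL28A1 was called lower in A375 and in SKMEL28 than in WM164.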
